A study of Mus musculus with 4 samples.

Results

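Transcripts of 9 genes, Aire, Fezf2, Deaf1, Prdm1, Hipk2, Chd4, Prkdc, Top1 and Sirt1, were followed in medullary thymic epithelial cells (mTECs) of male and female mice. They were chosen by name, as Aire itself, other transcriptional regulators of mTECs, and proteins known to act with or on Aire. They are 9 of the 23366 gene symbols in the count table, and all 9 passed the filter on low counts that kept 10865 genes. The mice were wild-type C57BL/6, aged 6-8 weeks, with no treatment named in the labels, and the comparison asks how mTEC transcripts differ with sex. Cells negative for propidium iodide and CD45, positive for MHCII and low in Ly51 were sorted, and polyA RNA was sequenced after amplification of the cDNA. There were 2 pools per sex, each made from 10 mice, so the spread between single mice cannot be seen. Values for single pools are given in the order female pool 1, female pool 2, male pool 1 and male pool 2.

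Aire is the nuclear protein through which mTECs transcribe genes that otherwise belong to peripheral tissues, such as insulin, so that thymocytes reactive to these antigens can be deleted or diverted. It does not act as a classical factor bound to one motif. It works on chromatin and on paused RNA polymerase together with partner proteins, among them the DNA-dependent protein kinase, topoisomerases and nucleosome remodelers, and its activity is altered by acetylation and phosphorylation. Fezf2 is a zinc-finger factor that drives a largely separate set of tissue antigens in mTECs. Aire transcripts are best known from mTECs that carry much MHCII, and have also been described in thymic B cells.

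The promoters of the main pair of antigen regulators are shown because transcripts of factors that act on the Aire promoter were measured as well. The sequences are the 250 bases before the start of transcription in RefSeq, each found once in its own chromosome of NCBIM37 (mm9). Capitals mark 5 short motifs searched on both strands: CCAAT (the NF-Y box), GGGCGG (the GC box), TGANTCA (AP-1), CCGGAA (an ETS site) and TATAAA (the TATA box).
Aire, chr10:77506356-77506605, minus strand: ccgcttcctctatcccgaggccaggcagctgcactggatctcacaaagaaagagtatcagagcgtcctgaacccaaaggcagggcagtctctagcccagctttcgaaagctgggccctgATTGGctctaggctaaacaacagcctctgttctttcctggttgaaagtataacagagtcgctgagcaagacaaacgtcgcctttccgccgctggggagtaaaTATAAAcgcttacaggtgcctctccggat
Fezf2, chr14:13178380-13178629, minus strand: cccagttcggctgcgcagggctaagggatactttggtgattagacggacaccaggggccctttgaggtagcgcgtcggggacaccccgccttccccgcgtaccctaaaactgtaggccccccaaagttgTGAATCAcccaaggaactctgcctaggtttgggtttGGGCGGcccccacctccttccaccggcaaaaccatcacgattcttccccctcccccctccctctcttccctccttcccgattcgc

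The Aire window held a CCAAT box on the opposite strand that began 131 bases before the start and a TATAAA box at 29 bases. The Fezf2 window held a TGANTCA site at 121 bases and a GGGCGG box at 85 bases, both on the strand of the gene. These short motifs were common. Among 32851 promoter windows of the same length, 33.8% held CCAAT, 32.7% GGGCGG, 12.4% TATAAA, 12% CCGGAA and 6.75% TGANTCA. A match is a run of letters and not a measured binding site. Of the 9 genes, 8 had a window in the RefSeq promoter table, with 11 windows among them. The windows of Aire and Fezf2 had 53.2% and 61.2% G and C bases, against 79.2% for Sirt1, whose window held 6 GGGCGG boxes.

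In the NCBIM37 annotation Aire spans chr10:77492767-77506355 on the minus strand with 15 exons, and Fezf2 spans chr14:13174406-13178379 on the minus strand with 5. The longest exonic sequence belonged to Prkdc on chromosome 16, with 12674 bases in 86 exons, and the shortest to Fezf2, with 2304 bases. Exons of Aire share 67 bases with those of Dnmt3l on the other strand. Dnmt3l had 2, 7, 11 and 7 counts. Exons of Sirt1 share 65 bases with those of Gm16145. Whether the counting used the strand was not given in the sources used here.

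Counts on genes ranged from 1976272 in female pool 2 to 7103627 in male pool 1. Levels are in normalized CPM, the counts of a gene divided by the size of its library after TMM correction for composition. The limit that a count of 0 allows, 3 counts, was 0.358 to 1.48 normalized CPM and, like the intervals on counts, covers counting error only. The gate was checked against marker genes. All 9 epithelial markers were counted in every pool, with a summed level of 376 to 650 normalized CPM. Transcripts of other cells were also present, at 2338 to 4207 for 6 B cell markers, 1515 to 4413 for 8 dendritic cell and macrophage markers, 482 to 1372 for 4 plasma cell markers and 226 to 673 for 7 thymocyte markers. Ptprc, which encodes CD45, was at 180 to 304 although the gate was CD45 negative. The sums were 68.0 to 102 for 5 cortical TEC markers, 10.9 to 75.5 for 4 fibroblast markers and 17.3 to 29.4 for 3 endothelial markers. None of these markers was at 0 in all pools. In such bulk samples fewer cells of a type and less RNA per cell cannot be told apart.

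All 9 regulators were low to moderate transcripts of the sorted pools. These levels are of whole pools, which also held transcripts of other cells. The share of each that came from mTECs was not tested. Per kilobase of exon, Top1 was the highest, at 15.6 ± 5.24 RPKM (normalized CPM divided by the exonic length in kilobases, SD, n = 4 pools), the 71.4th percentile of tested genes with a length. Chd4 followed at 7.75 ± 2.55 RPKM and Aire at 6.51 ± 1.65 RPKM, close to the median of 6.08 RPKM over 10226 genes. Fezf2, Sirt1 and Deaf1 had 5.02 ± 2.48, 4.52 ± 0.571 and 4.09 ± 0.269 RPKM. Hipk2 had 3.02 ± 0.621 RPKM. The lowest levels were those of Prkdc, at 1.47 ± 0.512 RPKM, and Prdm1, at 1.18 ± 0.332 RPKM, the 11.8th percentile.

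Some neighbours in this order were not separable. Fezf2 exceeded Sirt1 in only 2 of 4 pools. Chd4 exceeded Aire, Sirt1 exceeded Deaf1, and Prkdc exceeded Prdm1 in 3 of 4. The order Top1 above Chd4, Aire above Fezf2, Deaf1 above Hipk2 and Hipk2 above Prkdc was kept in all 4 pools.

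**Figure D1:**
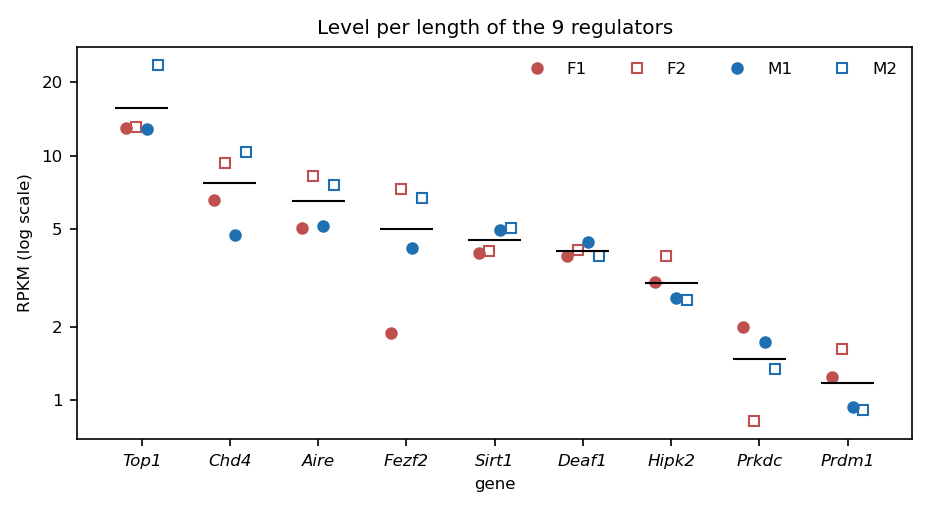
Level per kilobase of exon (RPKM, log axis) of the 9 regulators, ordered by their mean over 4 pools (black line). Circles are pool 1 and open squares pool 2, red for females and blue for males. The means run from 15.6 RPKM for Top1 to 1.18 RPKM for Prdm1.

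The regulators differed in how much they varied among pools. The coefficient of variation of normalized CPM over the 4 pools was 6.58% for Deaf1 and 12.6% for Sirt1. It was 20.5% for Hipk2, 25.4% for Aire and 28.2% for Prdm1. Chd4, Top1 and Prkdc varied by 32.9%, 33.6% and 34.8%, and Fezf2 varied most, by 49.4%. Counts behind these values were small for some genes, from 13 to 43 for Prdm1 and from 16 to 81 for Fezf2, against 276 to 1122 for Top1.

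Aire did not separate the sexes. Its level was 19.3, 31.7, 19.7 and 28.9 normalized CPM, from 71, 64, 165 and 75 counts. The female and male pools overlapped, and the high value in each sex was that of pool 2. The female pools averaged 25.5 ± 8.75 normalized CPM and the male pools 24.3 ± 6.48 (SD, n = 2 pools per sex). The log2 fold change of male over female was -0.07, with a standard error of 0.39 and a 95% interval of -1.0 to 0.86, in edgeR's quasi-likelihood fit.

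Fezf2 was at 4.35, 16.8, 9.68 and 15.4 normalized CPM. The lowest and the highest value were both from females, and female pool 1 rested on 16 counts, with a 95% counting interval of 2.49 to 7.06. The log2 fold change of male over female was 0.28 (standard error 0.66, 95% interval -1.29 to 1.84), the widest interval among the 9 regulators. Without female pool 1 it was -0.44. Deaf1, a transcription factor that shares the SAND domain with Aire, was at 11.1, 11.9, 12.8 and 11.2 normalized CPM. Its log2 fold change between the sexes was 0.07 (standard error 0.37), with a 95% interval of -0.82 to 0.95.

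Prdm1, Hipk2 and Sirt1 were the members whose male and female pools did not overlap. Prdm1, which encodes the repressor Blimp-1, was at 6.80, 8.91, 5.14 and 5.01 normalized CPM, lower in both male pools. The means were 7.85 ± 1.49 in females and 5.07 ± 0.0934 in males, and the log2 fold change was -0.61 (standard error 0.46, 95% interval -1.71 to 0.49). Prdm1 is also a gene of plasma cells, whose 4 markers summed to 921, 482, 1372 and 690 normalized CPM and overlapped between the sexes. Their part in the result was not tested. Hipk2, a nuclear kinase that phosphorylates Aire, was at 26.9, 34.6, 23.2 and 22.7. It was lower in both male pools, with a log2 fold change of -0.42 (standard error 0.32, 95% interval -1.17 to 0.34).

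Sirt1, a deacetylase that removes acetyl groups from Aire, was at 21.2, 21.8, 26.5 and 27.0 normalized CPM. Pools of the same sex were close together, with means of 21.5 ± 0.404 in females and 26.7 ± 0.303 in males. The log2 fold change was 0.32 (standard error 0.31, 95% interval -0.41 to 1.04). The counting intervals of single pools nevertheless overlapped between the sexes, at 16.8 to 26.5 for female pool 1 and 23.1 to 30.3 for male pool 1. The summed level of the 7 thymocyte markers was 226 to 248 in females and 305 to 673 in males. Of the 6 that were tested, 2 (Cd8a and Ptcra) were higher in males without overlap, beside 9.47% of all tested genes. Cd3e, Cd3g, Cd4 and Dntt overlapped between the sexes, with Cd3e at 17.1, 8.41, 90 and 7.32 normalized CPM. The part of thymocytes in the result was not tested. The direction of Prdm1, Hipk2 and Sirt1 was kept in all 10 alternative analyses, although the log2 fold change of Hipk2 was -0.21 and that of Prdm1 -0.40 without female pool 2. Leaving out 1 pool can hardly turn the direction of genes whose pools do not overlap, and the other alternatives used the same counts. The kept direction therefore adds no support for a difference between the sexes.

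The remaining partners overlapped between the sexes. Chd4, the ATPase of the NuRD remodeling complex, was at 53.0, 74.7, 38.0 and 82.8 normalized CPM, with the lowest and the highest level in males. Prkdc, the catalytic subunit of DNA-dependent protein kinase, was at 25.3, 10.4, 22.0 and 16.9. Top1, the topoisomerase that relaxes DNA through single-strand breaks, was at 136, 137, 134 and 245, so that 1 male pool stood above the other 3. Their log2 fold changes of male over female were -0.09 (standard error 0.45), 0.11 (standard error 0.47) and 0.47 (standard error 0.41). The value of Top1 fell to -0.019 without male pool 2.

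Between the sexes, 0 of the 9 regulators were called by edgeR's quasi-likelihood test at an adjusted p under 0.05 (adjusted p = 1 for each), and 0 had an unadjusted p under 0.05. DESeq2 and edgeR's exact test also called 0 of the 9. The background was 0% of 10865 genes past the adjusted threshold and 0.442% past an unadjusted p of 0.05 (0.322% higher and 0.120% lower in males). The smallest adjusted p by the quasi-likelihood test was 0.186, for Ddx3y and Eif2s3y. Both are genes of the Y chromosome, so this test did not call even a certain difference between the sexes. A gene not called by it is not shown to be alike in the sexes. The median log2 fold change of the 9 was 0.07, beside 0.027 over all tested genes. Of the 9, 5 were above 0 and 4 below, where 53.2% and 46.8% of tested genes were. Pools that did not overlap by sex were found for 3 of 9 regulators, 1 higher and 2 lower in males, where 9.47% of tested genes were higher without overlap and 11.7% lower (21.2% in all).

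**Figure D2:**
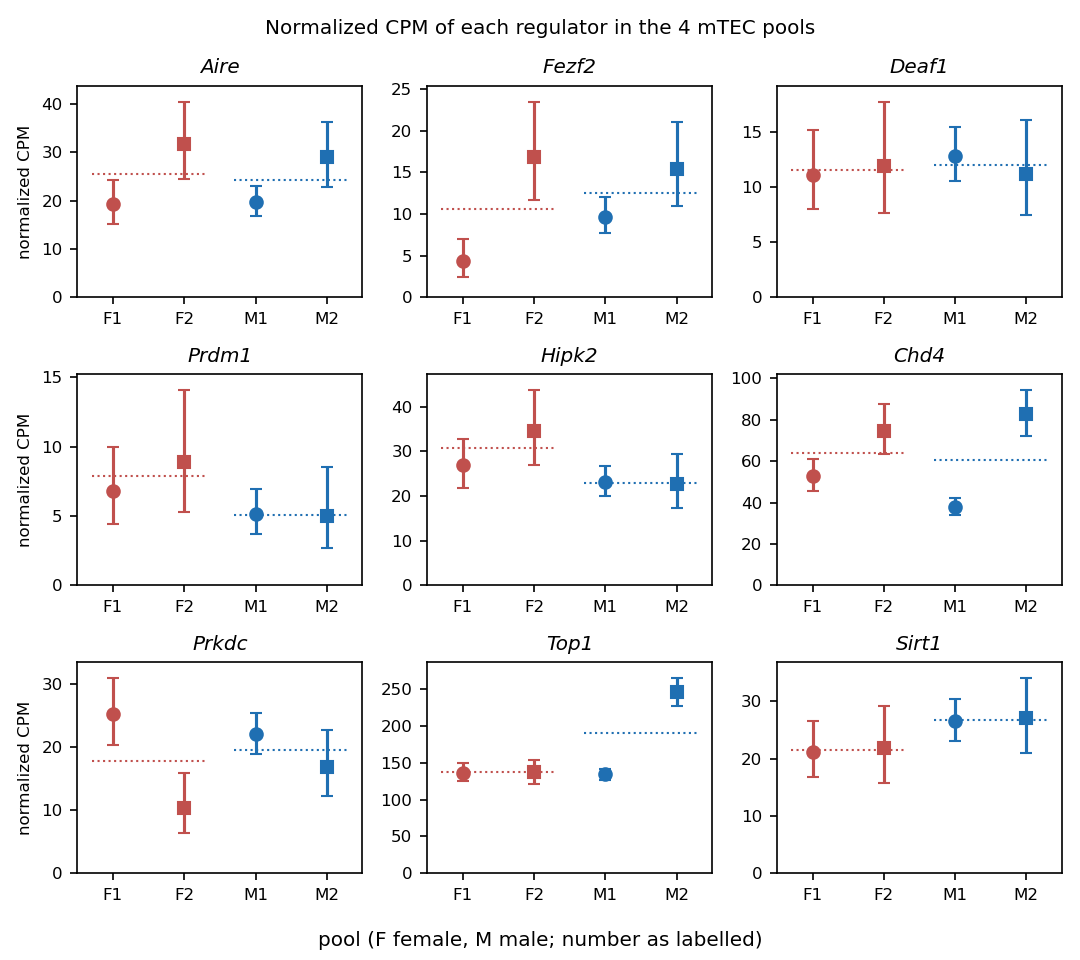
Normalized CPM (vertical axes, each from 0) of the 9 regulators in female (F, red) and male (M, blue) pools, with 95% counting intervals as bars and the mean of each sex as a dotted line. Aire is higher in pool 2 of both sexes (31.7 and 28.9) than in pool 1 (19.3 and 19.7), and Sirt1 is near 21 in females and near 27 in males.

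**Figure D3:**
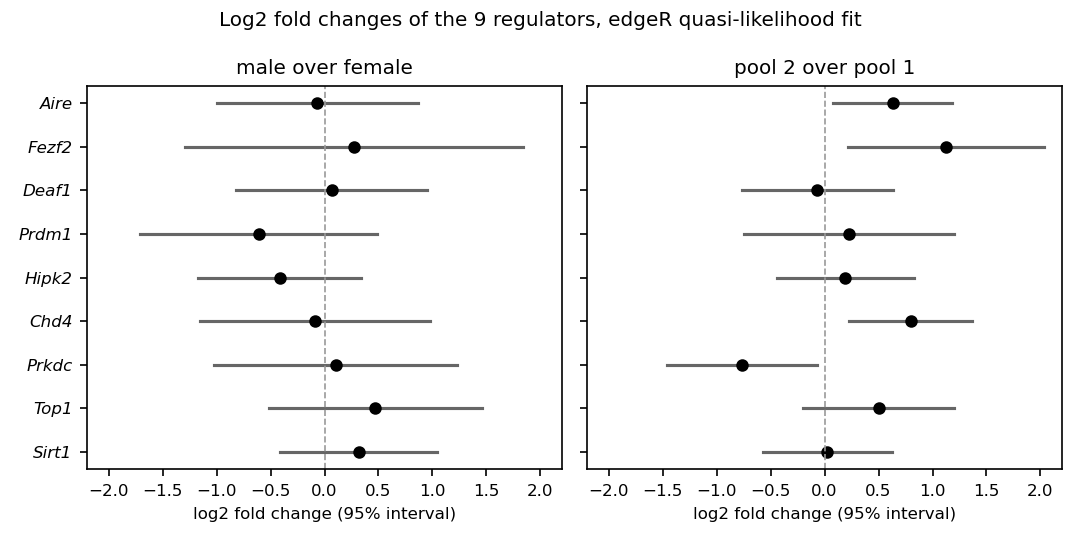
Log2 fold changes of the 9 regulators for male over female and for pool 2 over pool 1 by edgeR's quasi-likelihood fit, with 95% intervals as lines. All intervals of male over female include 0, and those of pool 2 over pool 1 exclude 0 before adjustment for Aire, Fezf2, Chd4 and Prkdc.

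Because the pools held transcripts of several cell types, Aire and Fezf2 were also set against the counts of the 9 epithelial markers (Epcam, Krt5, Krt8, Krt14, Krt18, Spint2, Cdh1, Cldn3 and Cldn4). This ratio does not depend on library normalization. Aire had 5.13, 4.87, 4.71 and 4.67 counts per 100 epithelial counts. The ratio varied only 1.10-fold among pools, where normalized CPM of Aire varied 1.64-fold. The 95% counting intervals, 3.99 to 6.52 in female pool 1 and 3.66 to 5.89 in male pool 2, overlapped for all pools. Males minus females gave -0.309 (5.0 ± 0.186 against 4.69 ± 0.0283, SD, n = 2 pools each; two-sided exact permutation test, p = 0.333, the lowest that 2 against 2 pools can give).

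This near constancy rested on 1 marker. Spint2, a membrane protease inhibitor of epithelia, supplied 49.5% to 64.2% of the epithelial counts. Without Spint2 the ratio of Aire was 14.3, 10.5, 10.2 and 9.26, a 1.55-fold range with both female pools above both male pools. Against Spint2 alone it was 8.00, 9.09, 8.73 and 9.43, and the difference of males minus females turned to 0.541. Against Epcam alone the ratio was 52.2, 74.4, 44.8 and 56.0. Against Krt5 alone it was 710, 400, 289 and 214, from only 10, 16, 57 and 35 counts of Krt5. The comparisons of spread and with Spint2 were chosen after seeing the data.

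Fezf2 had 1.16, 2.59, 2.31 and 2.49 counts per 100 epithelial counts. Female pool 1 stood below the other 3 pools, with a counting interval of 0.659 to 1.89 that overlapped those of female pool 2, male pool 1 and male pool 2, which began at 1.78, 1.83 and 1.77. Males minus females gave 0.531 (two-sided exact permutation test, p = 1), and without female pool 1 the difference was -0.185. Of the summed counts of Aire and Fezf2, Fezf2 made up 18.4% in female pool 1 (exact binomial 95% interval 10.9% to 28.1%), and 34.7%, 32.9% and 34.8% in the other pools. The interval of female pool 1 overlapped those of the other pools, which began at 25.4%, 27.1% and 26.1%.

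**Figure D4:**
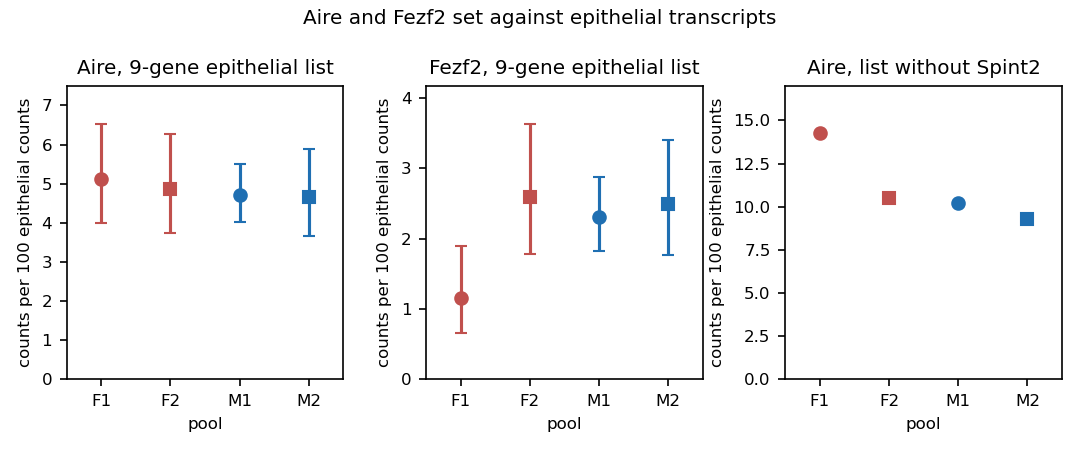
Counts of Aire and Fezf2 per 100 counts of the 9 epithelial markers, and of Aire per 100 counts of the markers without Spint2, in each pool (red female, blue male). Bars are 95% counting intervals and are not drawn in the right panel. Aire lies between 4.67 and 5.13 against all 9 markers and between 9.26 and 14.3 without Spint2.

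The labels number the pools of each sex 1 and 2, without saying what the number stands for. Aire, Fezf2, Chd4, Prkdc and Top1 had larger log2 fold changes in either direction with this number than with sex, none of them past the adjusted threshold. For Top1 the values were close, at 0.50 and 0.47. Aire was 19.5 ± 0.293 normalized CPM in the pools numbered 1 and 30.3 ± 1.97 in those numbered 2 (SD, n = 2 pools each). The log2 fold change of pool 2 over pool 1 was 0.63 (standard error 0.24, 95% interval 0.079 to 1.18), and the quasi-likelihood test of edgeR gave an adjusted p of 0.164. Within females the log2 ratio was 0.715 and within males 0.551. Fezf2 had 7.01 ± 3.77 and 16.1 ± 1.01 normalized CPM, with log2 ratios of 1.95 in females and 0.67 in males. Its log2 fold change of 1.12 (standard error 0.40) had an adjusted p of 0.14.

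Chd4 had 45.5 ± 10.6 normalized CPM in the pools numbered 1 and 78.8 ± 5.70 in those numbered 2. The log2 fold change was 0.80 (standard error 0.25, 95% interval 0.23 to 1.37, adjusted p = 0.111), with log2 ratios of 0.495 in females and 1.12 in males. Prkdc took the opposite direction, at 23.6 ± 2.33 and 13.7 ± 4.63, with a log2 fold change of -0.76 (standard error 0.31, adjusted p = 0.177). Its log2 ratios were -1.28 in females and -0.376 in males. Top1 was alike in the female pools (log2 ratio 0.0013) and higher in male pool 2 (log2 ratio 0.872), so that its log2 fold change of 0.50 came from 1 sex and was 0.0088 without male pool 2. Deaf1, Prdm1, Hipk2 and Sirt1 had log2 fold changes between -0.07 and 0.22, with adjusted p between 0.721 and 0.964.

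None of the 9 regulators passed the adjusted threshold between the numbered pools by edgeR's quasi-likelihood test, DESeq2 or edgeR's exact test, against 2.03% of 10865 genes by the first of these (1.86% higher and 0.175% lower in pool 2). Scaling by library size only, in place of TMM, changed that split of calls from 202 higher and 19 lower to 376 higher and 388 lower. The log2 fold changes of Aire, Fezf2, Chd4 and Prkdc were then 0.32, 0.79, 0.49 and -1.12, with the median of all genes at -0.351. At an unadjusted p under 0.05, 3 regulators were higher in pool 2 (Aire, Fezf2 and Chd4) and 1 was lower (Prkdc), and Prkdc alone passed when scaling was by library size only. With TMM the background was 14.4% higher and 9.22% lower, 23.7% in all. Log2 fold changes were above 0 for 7 regulators and below 0 for 2 (4 and 5 with library size only), beside 47.9% and 52.1% of tested genes, and their median was 0.22 beside -0.030. Pools did not overlap by number for 4 regulators that were higher and 1 that was lower, beside 26.5% and 29.0% of tested genes. A share of 5 in 9 is thus near the background of 55.5% in either direction. Without female pool 2, Chd4 (log2 fold change 0.91, adjusted p = 0.0184) and Top1 (0.89, adjusted p = 0.00405) were called higher in pool 2, but so many genes passed (2620 of 11448) that 2 of 9 is near the background. The only pool numbered 2 was then male pool 2, taken to vary like the pools numbered 1.

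Marker levels also differed between the numbered pools, where 26.5% of all tested genes were higher in pool 2 without overlap and 29.0% lower. Of the 9 epithelial markers, 6 were higher in pool 2 without overlap and 1 lower, with sums of 376 and 418 normalized CPM in the pools numbered 1 and 650 and 618 in those numbered 2. Of the 8 dendritic cell and macrophage markers, 5 were higher and 1 lower, with sums of 2031 and 1515 against 3351 and 4413. The 5 tested B cell markers were lower in pool 2, with sums of 4207 and 3440 against 2764 and 2338. The 4 plasma cell markers were lower as well. Of the 6 tested thymocyte markers, 3 (Cd3e, Cd3g and Dntt) were lower in pool 2 without overlap and 1 (Cd4) was higher. The log2 fold changes of Cd3e, Cd3g and Dntt were -2.80, -2.29 and -2.98. Thymocyte sums were 248 and 673 against 226 and 305. The part of these cell types in the pool differences was not tested. Aire per 100 epithelial counts was 5.13 and 4.71 in the pools numbered 1 and 4.87 and 4.67 in those numbered 2, but this depended on the marker. Per 100 counts of Epcam alone it was higher in pool 2 of both sexes (52.2 to 74.4 and 44.8 to 56.0), and per 100 counts of Krt5 alone it was lower (710 to 400 and 289 to 214). Over the 2559 shortest tested genes, of up to 2276 exonic bases, the median log2 fold change of pool 2 over pool 1 was 0.313, and over groups of longer genes of like size it was -0.074, -0.14 and -0.167.

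The genes whose pattern over the 4 pools was closest to that of Aire, by Euclidean distance between centred log2 normalized CPM, were 1600014C10Rik, Trf (transferrin), Haus8 (a subunit of the augmin complex), Myo1f (an unconventional myosin) and Cln3 (a lysosomal membrane protein). Their distances ran from 0.0588 to 0.0658. The nearest of the 9 regulators was Chd4 at 0.447, with 9.4% of tested genes closer to Aire. Fezf2 was at 0.965, with 56.3% of genes closer, and Prkdc was the farthest at 1.55. With 4 pools such distances are a description only.

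**Figure D5:**
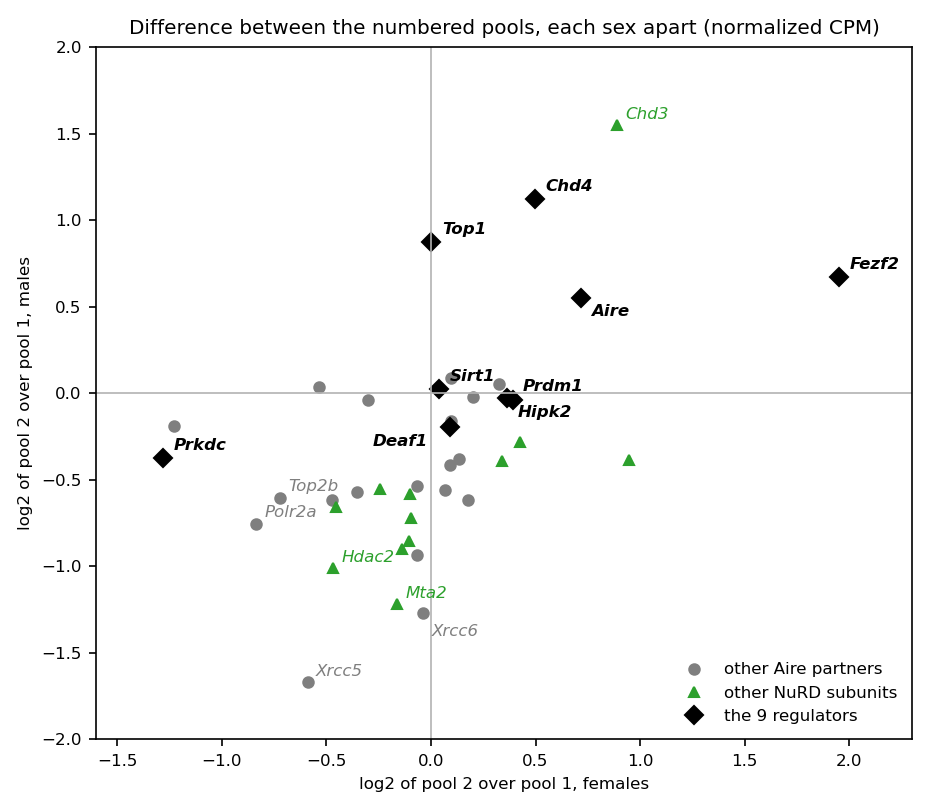
Log2 ratio of pool 2 over pool 1 in normalized CPM, females on the horizontal and males on the vertical axis, for the 9 regulators (black diamonds), 19 other Aire partners (grey circles) and 12 other NuRD subunits (green triangles). Aire, Fezf2, Chd4 and Chd3 lie to the upper right, and Prkdc and Xrcc5 to the lower left.

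Other proteins that act with Aire were examined as a list of 19 genes, all tested. Among the most abundant were Hnrnpl, an RNA-binding splicing factor, and Cdk9, the kinase that releases paused polymerase, at means of 143 and 106 normalized CPM. Between the sexes 0 of 19 passed the adjusted threshold by edgeR's quasi-likelihood test and 0 had an unadjusted p under 0.05 (background 0.442%), with a median log2 fold change of -0.133 beside 0.027 over all tested genes. Between the numbered pools 0 passed the adjusted threshold, 3 were lower at an unadjusted p under 0.05 (background 9.22%), and the median was -0.246 beside -0.030. DESeq2 and edgeR's exact test also called 0 of 19 in both comparisons. Between the numbered pools, library size only called 1 lower (Xrcc5), with 764 of 10865 genes called in all. With no filter 2 were called lower (Polr2a and Xrcc5), with 1504 of 17866 genes in all. Between the numbered pools 16 of 19 had a log2 fold change below 0, where 52.1% of all tested genes had. Without overlap 10 were lower in pool 2 and 1 was higher, beside 29.0% and 26.5% of all tested genes.

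Partners of Prkdc in its own complex were named after their values were seen. Xrcc5, which encodes the Ku80 subunit, was at 17.1, 11.4, 17.2 and 5.39 normalized CPM, lower in pool 2 of both sexes with a log2 fold change of -1.07 (standard error 0.38, adjusted p = 0.137). Xrcc6, which encodes Ku70, was at 22.8, 22.3, 47.2 and 19.6, with log2 ratios of pool 2 over pool 1 of -0.036 in females and -1.27 in males. The summed level of Prkdc, Xrcc5 and Xrcc6 was 65.2, 44.0, 86.4 and 42.0 normalized CPM. Each sex had its lower sum in pool 2. In females Prkdc had the largest log2 ratio of the 3 genes, and in males Xrcc5 and Xrcc6 had. Transcripts of B cells were lower in the same pools. The thymocyte sum was lower there too, at 226 against 248 in females and 305 against 673 in males. Of its 7 markers, 3 were lower and 3 higher in pool 2 of both sexes. The part of these cells in the result was not tested.

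The list of NuRD held 13 subunits beside Chd4, of which 12 were tested and Chd5 was below the filter. The most abundant were Hdac1, a histone deacetylase, and the histone-binding proteins Rbbp7 and Rbbp4, at means of 235, 199 and 195 normalized CPM. Between the sexes 0 of 12 passed the adjusted threshold by edgeR's quasi-likelihood test, DESeq2 or edgeR's exact test, and 0 had an unadjusted p under 0.05. Between the numbered pools 0 passed the adjusted threshold (1 was higher and 1 lower at an unadjusted p under 0.05, beside 14.4% and 9.22% of all tested genes). Estimates were below 0 for 9 of 12, where 52.1% of all tested genes were, and the median log2 fold change was -0.392 beside -0.030. Chd3, the paralog of Chd4, was named after its values were seen. It was at 32.9, 60.9, 34.5 and 101 normalized CPM and higher in pool 2 of both sexes, with a log2 fold change of 1.27 (standard error 0.28, adjusted p = 0.0572). It passed the adjusted threshold in 5 of 10 alternative analyses, DESeq2 and edgeR's exact test among them. Over all 10865 tested genes DESeq2 called 651 and the exact test 1138, against 221 by the quasi-likelihood test. Passing there is therefore a looser criterion. The log2 fold changes of both ATPases, Chd4 and Chd3, were above 0 in all 10 alternatives. Neither gene overlapped by pool number, so leaving out 1 pool could hardly turn the direction. The difference between these genes and the other subunits was not tested.

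Factors of the Aire promoter and of Aire induction formed a list of which 15 genes were tested. The most abundant were Fos, Irf8 and Jun, at means of 1380, 537 and 485 normalized CPM. The sexes gave 0 of 15 past the adjusted threshold by edgeR's quasi-likelihood test, DESeq2 or edgeR's exact test, and 0 had an unadjusted p under 0.05. Jun and Fos, the subunits of AP-1, had log2 fold changes of -0.95 (standard error 0.43) and -0.73 (standard error 0.46), and were lower in both male pools. Without overlap 4 of the 15 were lower in males and 1 was higher, beside 11.7% and 9.47% of all tested genes. Between the numbered pools 0 passed by the quasi-likelihood test, and 1 was higher and 4 lower at an unadjusted p under 0.05, beside 14.4% and 9.22% of all tested genes. The median was -0.290 beside -0.030. Ets1, named after its values were seen, was at 109, 63.8, 157 and 40.8, with a log2 fold change of -1.36 and an adjusted p of 0.0572. It passed the adjusted threshold in 7 of 10 alternatives, DESeq2 and the exact test among them. These called 651 and 1138 of 10865 genes in all, more than the 221 of the quasi-likelihood test. Passing them is therefore a looser criterion. For Irf8, a factor of dendritic cells and B cells, the log2 fold change was 0.88 (standard error 0.32).

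The antigens under the control of Aire that had been measured by RT-PCR numbered 8, of which 3 passed the filter. Ins1, Tyrp1, Spt1 and Mog were at 0 in all pools, which allows at most 0.358 to 1.48 normalized CPM, and Obp1a had 1 count. Ins2 was at 0.544, 5.94, 0.597 and 14.2 normalized CPM and Reg3b at 1.09, 8.41, 1.31 and 10.8, both higher in pool 2 of each sex, as Aire was. Ins2 had 2, 12, 5 and 37 counts, below the limit of 3 counts in female pool 1, and Reg3b had 4, 17, 11 and 28. Both genes passed the filter on low counts only through the pools numbered 2. The test between the numbered pools is therefore not independent of the filter for either gene. Their log2 fold changes of pool 2 over pool 1 were 4.09 (standard error 0.61) and 2.94 (standard error 0.45), both with an adjusted p of 0.0391, and neither passed without male pool 2. Over all tested genes, 1.86% were called higher in pool 2 by the quasi-likelihood test with all pools. Of these 3 antigens, 0 passed the adjusted threshold between the sexes by the quasi-likelihood test, DESeq2 or the exact test, and 0 had an unadjusted p under 0.05. Without male pool 1, Ins2 and Tyr were called higher in males, together with 646 of 11292 genes in all, but the male side was then male pool 2 alone, taken to vary like the female pools. Without male pool 2, all 3 antigens were below 0, with a median log2 fold change of -1.68.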

How the data were processed

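The count unit is the deposited reads per gene. Per the labels and the paper, the authors trimmed reads with Trimmomatic, aligned them to mm9 with TopHat2, and counted them with HTSeq. The versions, annotation and strand setting of the counting are not given in the sources used here. Rows that name no gene (5 rows, 66.9% to 70.17% of a pool) stayed out of library sizes and tests.

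From these counts, sexes and pool numbers were compared over all genes with edgeR 4.0.16 in R 4.3.3 (quasi-likelihood test, two-sided, TMM, filterByExpr with a minimum count of 10, prior count 0.125, Benjamini-Hochberg threshold 0.05). Sex or pool number was the only term. Alternatives were upper-quartile scaling, library size only, no filter, DESeq2 1.42.0, edgeR's exact test, the other label as a further term, other epithelial denominators, and each pool left out. Ratios used exact permutation tests. Intervals are 95% (exact Poisson or Clopper-Pearson for counts). Python 3.11.15, pandas 2.3.3 and matplotlib 3.10.9 were also used.

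Exonic lengths and coordinates came from GENCODE vM1 on NCBIM37, in which 21048 symbols (90.1%) had 1 gene of that name. Promoters came from the RefSeq table for GRCm38.p6 and were placed on NCBIM37 by sequence.

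The members, lists and tests were chosen with earlier results of these data known. Named were the 9 members, the 3 most abundant genes and any called genes of each list, and the 5 genes with patterns nearest to Aire. A few genes within the rule are not reported here. Other names are stated as chosen after their values were seen. Per the paper the pools of a sex were biologic replicates. Nothing in the labels says whether they were sorted on separate days. The p-values measure only the spread between these pools.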

Additional observations from a re-analysis of the deposited data

How the results depend on the processing

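Between the sexes 0 of the 9 regulators were called in any alternative. The number of genes called, 0 of 10865 by the quasi-likelihood test, was 5 with library size only, 26 with no filter, 3 by DESeq2, 8 by edgeR's exact test, 17 with pool number as a replicate block, and 0 to 646 when each pool was left out (646 without male replicate 1, 70 without male replicate 2). Between the numbered pools the count of 221 was 764 with library size only, 1504 with no filter, 651 by DESeq2, 1138 by the exact test, 807 with sex as a further term and 174 to 2620 without 1 pool (2620 without female replicate 2, 411 without female replicate 1). Of the 9 regulators, 1 was then called with no filter (Fezf2, log2 fold change 1.05, adjusted p = 0.0429) and 0 to 2 without 1 pool. The cause of these changes was not tested.

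With library size only the median of all genes for pool 2 over pool 1 was -0.351, and the log2 fold changes of Prdm1, Hipk2 and Sirt1 turned to -0.082, -0.090 and -0.32. With no filter that of Sirt1 was -0.043. Leaving out each pool, male over female ranged from -0.39 to 0.34 for Aire, -0.44 to 1.52 for Fezf2, -0.051 to 0.16 for Deaf1, -0.73 to 0.37 for Chd4, -0.35 to 0.91 for Prkdc -0.019 to 0.83 for Top1, -0.81 to -0.40 for Prdm1, -0.59 to -0.21 for Hipk2 and 0.30 to 0.35 for Sirt1. Pool 2 over pool 1 ranged from -0.16 to 0.032 for Deaf1, -0.19 to 0.60 for Prdm1, -0.10 to 0.47 for Hipk2 and -0.15 to 0.19 for Sirt1, and it kept its sign for Aire (0.59 to 0.69), Fezf2 (0.72 without female replicate 1 to 1.86 without male replicate 1), Chd4 (0.56 to 1.04), Prkdc (-1.18 without male replicate 2 to -0.44 without female replicate 2) and Top1 (0.0088 without male replicate 2 to 0.89 without female replicate 2). The genes that kept their sign were those whose pools did not overlap by number. For such genes leaving out 1 pool can hardly turn the direction, so the kept sign restates the lack of overlap. The same holds for Prdm1, Hipk2 and Sirt1 between the sexes. The difference between the sexes in counts per 100 epithelial counts was 0.541 for Aire against Spint2 alone and -58.1 for Fezf2 against Krt5 alone, and -0.185 to 1.25 for Fezf2 without 1 pool.

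The labels give both sexes the pool numbers 1 and 2 but no shared day or animal, so the numbers were not taken as pairs. The pool differences of the sexes correlated with r = 0.519 over genes, and what same-numbered pools share is not known. The replicate block changed the call of none of the 9 regulators. Depth limits Fezf2 and Prdm1 most, with as few as 16 and 13 counts in a pool.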
